A study of Mus musculus with 6 samples.

Results

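Chemokine and chemoattractant receptors of the osteoclast lineage were described from RNA sequencing of mouse bone marrow-derived macrophages. Their members are 9 genes, Cx3cr1, Ccr1, Ccr2, Ccr3, Cxcr4, C3ar1, C5ar1, Fpr1 and Fpr2, found by symbol among the 57180 Ensembl identifiers of the deposited table, and each symbol matched 1 identifier. Wild-type primary macrophages were held for 5 days in medium that drives osteoclast formation, with Visomitin (3 libraries) or without it (3 control libraries). Visomitin, also called SkQ1, is a plastoquinone antioxidant carried into mitochondria by a cation; the sources used here state neither its dose nor the cytokines of the medium, nor the strain, sex, age or number of mice. The libraries are called Visomitin 1 to 3 and control 1 to 3, and nothing says that they came from separate mice or cultures, so p-values speak only of library-to-library spread, which may be technical. Levels are TPM, a share of transcripts scaled for gene length and library total; TPM keep no read counts, so the depth is unknown.

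Chemokine and chemoattractant receptors are G protein-coupled receptors that steer leukocytes along gradients of secreted proteins, complement fragments or bacterial peptides, mostly through inhibitory G proteins. Osteoclasts form when monocyte and macrophage precursors gather on bone and fuse, so these receptors bear on where precursors go and on which cells they meet. In mice, Ccr1 is known as a receptor that osteoclasts gain as they form, with Ccl9 as an abundant ligand made by the same cells, while Cx3cr1 and Ccr2 are known as receptors of monocytes and precursors.

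The sequences upstream of the receptor genes with the largest falls, Ccr1 and Ccr3, are shown beside that of Cxcr4, the most abundant receptor gene that rose. Each is the 250 bases before the transcription start in the RefSeq promoter table for mouse GRCm38.p6, written 5′ to 3′ on the gene's own strand. They lie at chr9:123968693-123968942 on the minus strand for Ccr1, chr9:124021721-124021970 on the plus strand for Ccr3 and chr1:128592300-128592549 on the minus strand for Cxcr4. Capitals mark matches to the motifs searched.
Ccr1: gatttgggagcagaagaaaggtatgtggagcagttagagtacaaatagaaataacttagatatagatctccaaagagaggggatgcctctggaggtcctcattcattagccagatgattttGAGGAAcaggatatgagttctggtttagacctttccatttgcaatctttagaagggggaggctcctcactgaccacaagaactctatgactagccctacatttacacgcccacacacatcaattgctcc
Ccr3: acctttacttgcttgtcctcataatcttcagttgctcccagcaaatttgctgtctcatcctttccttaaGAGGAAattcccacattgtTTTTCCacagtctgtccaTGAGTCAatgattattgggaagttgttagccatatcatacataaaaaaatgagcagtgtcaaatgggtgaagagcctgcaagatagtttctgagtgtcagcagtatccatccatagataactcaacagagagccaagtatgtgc
Cxcr4: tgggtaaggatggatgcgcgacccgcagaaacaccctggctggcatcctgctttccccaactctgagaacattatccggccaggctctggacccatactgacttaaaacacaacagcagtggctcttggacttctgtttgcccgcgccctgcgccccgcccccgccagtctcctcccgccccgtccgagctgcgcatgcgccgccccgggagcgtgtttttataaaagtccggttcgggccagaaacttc
The letters searched, on both strands, were GAGGAA (PU.1 core), TTCNNNGAA (STAT), TGANTCA (AP-1), GGAAAA (NFAT core) and TTGCNNAA (C/EBP); GAGGAA and GGAAAA can overlap, but did not in these windows. The Ccr1 window held 1 match, GAGGAA. The Ccr3 window held 1 match each to the PU.1 core letters, the AP-1 letters and, on the opposite strand, the NFAT core letters. The Cxcr4 window held 0 matches and had 61.2% G and C, against 43.6% for Ccr1 and 40.4% for Ccr3. Among 32851 windows of the same length in the table, GAGGAA occurred in 23.3%, GGAAAA in 20.4%, C/EBP letters in 9.56%, STAT letters in 7.02% and AP-1 letters in 6.75%. Annotated exons in GENCODE M21 cover all 250 bases of the Cx3cr1 window and 233 of those of the Ccr2 window, which holds 1 GGAAAA match, so these windows are not all upstream of a transcript. Among the windows of the 9 receptor genes, the counts were 3 for GAGGAA, 4 for GGAAAA, 2 for TGANTCA, 1 for TTCNNNGAA and 0 for TTGCNNAA. A match is a run of letters and not a bound site.

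Of the 9 genes, 8 reached the filter of at least 1 TPM in at least 3 libraries and were tested with limma on log2(TPM + 1), with Benjamini-Hochberg adjustment over all 11753 genes tested. Ccr1 and Ccr3 fell by more than 2-fold (as a background, 1.69% of all tested genes passed and changed by at least 2-fold), C5ar1 fell less, and Cx3cr1 and Cxcr4 rose. C3ar1, Fpr1 and Fpr2 did not pass, and Ccr2 was below the filter. That makes 2 higher and 3 lower at an adjusted p under 0.05, where 7.10% of all tested genes passed, 2.08% higher and 5.03% lower. Over the whole table these were 244 genes higher and 591 lower, against 481 and 689 with median-ratio scaling and 559 and 651 with quantile normalization. With 8 genes that were picked by hand, these shares are set beside each other only as a description. The median log2 fold change was -0.21 over the 8 tested genes and -0.03 over all tested genes. Of the 9 genes, 7 had TPM ranges that did not overlap between the groups, among them Ccr2, which was not tested. The share was 30.4% over all tested genes, which leaves out genes below the filter.

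**Figure D1:**
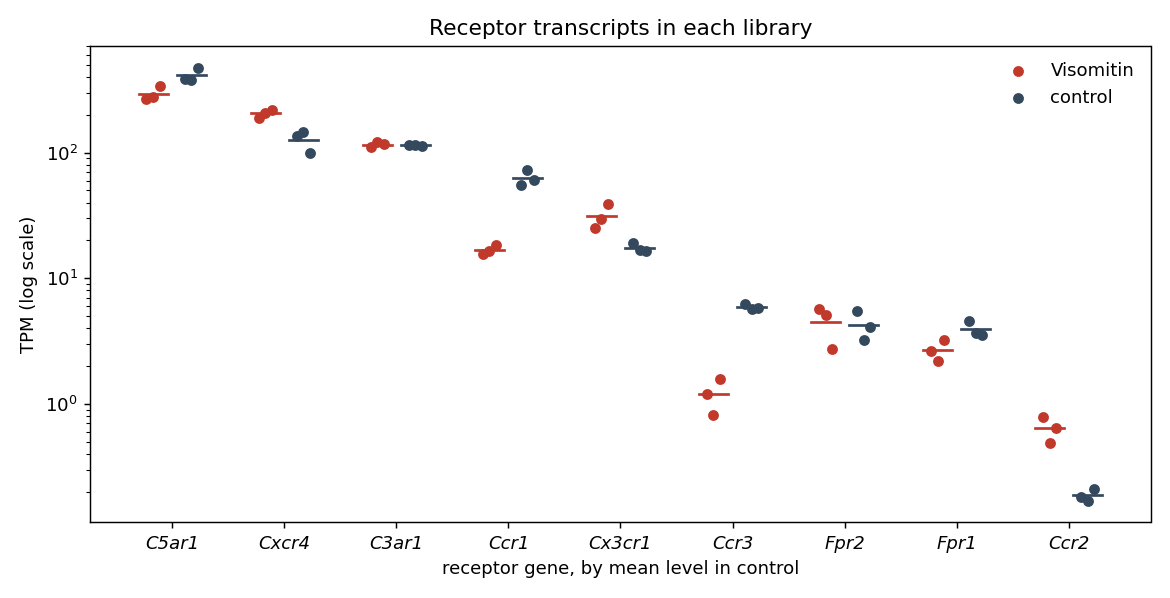
TPM of each receptor gene (log axis) in the 3 Visomitin libraries (left, red) and the 3 control libraries (right, dark); points are libraries and bars are group means. Ccr1 and Ccr3 lie lower with Visomitin, Cxcr4, Cx3cr1 and Ccr2 lie higher, and the groups overlap for C3ar1 and Fpr2.

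The libraries matched their label. Macrophage genes were abundant in all of them, with Csf1r, the receptor for the macrophage growth factor, at 1150 to 1922 TPM in Visomitin and 1298 to 1513 TPM in control libraries. All 8 osteoclast markers examined (Acp5, Ctsk, Dcstamp, Ocstamp, Mmp9, Calcr, Oscar and Atp6v0d2) were lower with Visomitin, by -2.94 to -1.39 on the log2 scale, and their summed level was 2914 to 3499 TPM in Visomitin and 11017 to 11969 TPM in control libraries. Among the macrophage genes 1 of 8 passed the test, as did 7.10% of all tested genes. It was Mertk, an engulfment receptor, which rose (log2 fold change 0.57, limma adjusted p = 0.022) but lost its call without Visomitin 2, control 1, control 2 or control 3 and with no filter on low values (adjusted p up to 0.096). The first principal component separated the groups; the second set Visomitin 1 (score 25.1) apart from Visomitin 2 (-17.2) and Visomitin 3 (-16.8). In bulk RNA, fewer cells of a type and less RNA per cell cannot be told apart, and this holds for every receptor below.

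Ccr1 is the receptor for Ccl3, Ccl5 and, in mice, Ccl6 and Ccl9. It showed the largest fall of the tested receptor genes on the log2(TPM + 1) scale. With 0.1 in place of 1 added before the log, Ccr3 fell further (log2 fold change -2.25, against -1.89 for Ccr1). Ccr1 had 15.5, 16.6 and 18.3 TPM in Visomitin 1, 2 and 3, against 55.7, 72.2 and 60.5 TPM in control 1, 2 and 3. Every Visomitin library was below every control library, and the gap between the groups was wider than the range within either. The means were 16.8 ± 1.42 TPM in Visomitin and 62.8 ± 8.45 TPM in control libraries (SD, n = 3 each), a log2 fold change of -1.84 (SE 0.12, limma adjusted p = 8.51e-05), or 3.57-fold lower on the log2(TPM + 1) scale. By p-value Ccr1 ranked 29 among the 11753 tested genes. It passed under all 16 alternative settings run, with adjusted p from 1.89e-05 to 0.0026.

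Ccr3, best known as the eotaxin receptor of eosinophils, lies near Ccr1 and Ccr2 on mouse chromosome 9 and was lower as well, at low levels. It had 1.21, 0.82 and 1.58 TPM in Visomitin 1, 2 and 3, against 6.25, 5.71 and 5.81 TPM in control 1, 2 and 3. The control libraries were close to each other, and all Visomitin libraries were far below them. The log2 fold change was -1.67 (SE 0.17, limma adjusted p = 0.0010). At such levels the size depends on the pseudocount added before the log, with -2.25 for a pseudocount of 0.1 and -0.82 for a pseudocount of 5. Eosinophil markers were near 0: of 7 genes, Prg3, Epx, Ear1, Ear6 and Il5ra were at 0 in all libraries, and the list summed to 0.06 to 0.1 TPM in Visomitin and 0.67 to 1.1 TPM in control libraries. Of that small sum, Prg2, an eosinophil granule protein gene, was at 0 in every Visomitin library and at 0.47, 0.51 and 0.61 TPM in control 1, 2 and 3.

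The log2 fold changes of Ccr1 and Ccr3 lay within the range of those of the osteoclast markers named above. Relative to the control mean, Ccr1 stood at -1.94, -1.85 and -1.71 on the log2(TPM + 1) scale in Visomitin 1, 2 and 3, while Ctsk, the collagen-degrading cathepsin, stood at -2.15, -2.22 and -2.28. Dcstamp, a fusion gene, stood at -3.11, -2.95 and -2.77. The part of the osteoclast genes' fall in that of the receptors was not tested. The ratio of Ccr1 to Ccr3 was 12.8, 20.2 and 11.6 in Visomitin 1, 2 and 3 and 8.91, 12.6 and 10.4 in control 1, 2 and 3, and the groups overlapped (exact two-sided permutation test over the 6 libraries, p = 0.2; 0.25 adjusted over the 5 ratios examined).

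**Figure D2:**
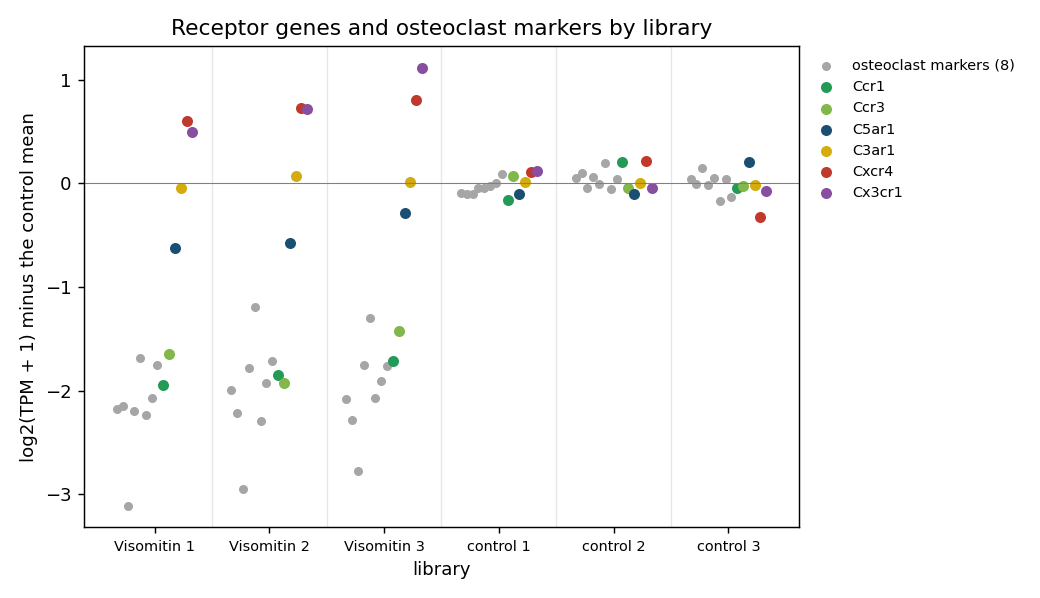
Level of the 6 most discussed receptor genes (coloured) and 8 osteoclast markers (grey) in each library, as log2(TPM + 1) minus the gene's mean over the control libraries. Ccr1 and Ccr3 lie close to the osteoclast markers in the Visomitin libraries, C3ar1 lies near 0, and Cxcr4 and Cx3cr1 lie above 0.

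Cxcr4, the receptor for Cxcl12 that retains haematopoietic cells in the marrow, rose and was the second most abundant of the 9 genes in both groups. It had 190, 208 and 219 TPM in Visomitin 1, 2 and 3, against 135, 145 and 99.4 TPM in control 1, 2 and 3. All Visomitin libraries were above the highest control library, and control 3 was the lowest of all. The means were 206 ± 15.0 TPM in Visomitin and 126 ± 24.0 TPM in control libraries (SD, n = 3 each; log2 fold change 0.71, SE 0.14, limma adjusted p = 0.022). The call was lost without Visomitin 2 (adjusted p = 0.070), Visomitin 3 (0.0502) or control 1 (0.061) and with no filter on low values (0.087); over all alternatives the adjusted p ran from 0.0042 to 0.087 and the log2 fold change from 0.55 to 0.82.

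Cx3cr1, the fractalkine receptor of monocytes, tissue macrophages and osteoclast precursors, also rose. It had 25.1, 29.5 and 39.1 TPM in Visomitin 1, 2 and 3, against 19.2, 16.9 and 16.5 TPM in control 1, 2 and 3. The groups did not overlap, and the Visomitin libraries were spread more widely than the control libraries. The means were 31.2 ± 7.14 TPM in Visomitin and 17.5 ± 1.42 TPM in control libraries (SD, n = 3 each; log2 fold change 0.78, SE 0.16, limma adjusted p = 0.025). The call was lost without Visomitin 2 (adjusted p = 0.069), control 1 (0.064), control 2 (0.065) or control 3 (0.083) and with no filter (0.089), while the log2 fold change stayed between 0.61 and 0.92 over all alternatives (adjusted p 0.0034 to 0.089). A noncoding gene on the opposite strand, Gm33858, shares 78 exonic bases with Cx3cr1 in GENCODE M21 and was at 0.11 to 0.36 TPM.

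Ccr2, the receptor for Ccl2 on inflammatory monocytes, was at the floor of the measurement. It had 0.79, 0.49 and 0.64 TPM in Visomitin 1, 2 and 3, against 0.18, 0.17 and 0.21 TPM in control 1, 2 and 3. The Visomitin values were the higher ones in all libraries, but none reached 1 TPM, and the gene was not in the main test. With no filter on low values it did not pass (log2 fold change 0.46, SE 0.08, limma adjusted p = 0.062 over 22323 genes). Among 6 monocyte markers, Ly6c2, which defines circulating inflammatory monocytes, was at 0, 0.05 and 0 TPM in Visomitin 1, 2 and 3. It was at 0 in every control library. Vcan was at 7.72 to 8.07 TPM in Visomitin and 9.13 to 14.5 TPM in control libraries. Plac8 was at 3.53 to 6.65 TPM in Visomitin and 3.43 to 13.3 TPM in control libraries, and neither passed. The list summed to 11.8 to 15.8 TPM in Visomitin and 15.9 to 25.7 TPM in control libraries, lower with Visomitin, unlike Ccr2.

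Ratios between chemokine receptor genes within a library do not depend on the scaling between libraries. Ccr1 over Ccr2 was 19.6, 33.8 and 28.6 in Visomitin 1, 2 and 3, against 310, 424 and 288 in control 1, 2 and 3. Cx3cr1 over Ccr2 was 31.8, 60.3 and 61.1 in Visomitin 1, 2 and 3, against 106, 99.4 and 78.8 in control 1, 2 and 3. Cx3cr1 and Ccr2 were both higher with Visomitin, so the second ratio is lower because Ccr2 differed by the larger factor. Neither pair overlapped between the groups, and both had p = 0.1 by the exact two-sided permutation test, the smallest that 3 against 3 libraries allow (0.17 adjusted over the 5 ratios). Because Ccr2 was below 1 TPM, both ratios rest on small values.

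C5ar1, the receptor for the complement fragment C5a, was the most abundant of the 9 genes in both groups and was lower with Visomitin. It had 266, 276 and 336 TPM in Visomitin 1, 2 and 3, against 382, 382 and 475 TPM in control 1, 2 and 3. The highest Visomitin library was below the lowest control library, and the difference in means was larger than the range within either group. The means were 293 ± 38.1 TPM in Visomitin and 413 ± 54.0 TPM in control libraries (SD, n = 3 each; log2 fold change -0.50, SE 0.12, limma adjusted p = 0.048). This call sat at the threshold. It was lost without Visomitin 1 (0.094), Visomitin 2 (0.14), control 1 (0.10), control 2 (0.072) or control 3 (0.14), with no filter (0.15), with a pseudocount of 0.1 (0.0501), without the variance trend (0.090) and after quantile normalization (0.063), and over all alternatives the adjusted p ran from 0.0083 to 0.15 and the log2 fold change from -0.60 to -0.39.

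C3ar1, the receptor for the companion fragment C3a, did not pass the test. It had 111, 121 and 116 TPM in Visomitin 1, 2 and 3, against 116, 115 and 114 TPM in control 1, 2 and 3. The groups overlapped, and the means differed by less than the range of the Visomitin libraries (log2 fold change 0.014, 95% interval -0.16 to 0.19, limma adjusted p = 0.93). The ratio of C3ar1 to C5ar1 was 0.418, 0.437 and 0.346 in Visomitin 1, 2 and 3, against 0.303, 0.301 and 0.240 in control 1, 2 and 3. No Visomitin library overlapped the control libraries (exact two-sided permutation test, p = 0.1, the smallest possible; 0.17 adjusted over the 5 ratios).

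The formyl peptide receptors were low and did not pass. Fpr1, which binds bacterial formylated peptides, had 2.62, 2.20 and 3.23 TPM in Visomitin 1, 2 and 3, against 4.56, 3.70 and 3.54 TPM in control 1, 2 and 3. Its groups did not overlap, but the test did not call it (log2 fold change -0.43, 95% interval -0.80 to -0.05, limma adjusted p = 0.16); it passed with array weights (0.024), and over all alternatives the adjusted p ran from 0.024 to 0.40. Fpr2, which binds formyl peptides, serum amyloid A and peptides of annexin A1, had 5.70, 5.11 and 2.76 TPM in Visomitin 1, 2 and 3, against 5.45, 3.22 and 4.12 TPM in control 1, 2 and 3. Its groups overlapped fully (log2 fold change 0.05, 95% interval -0.52 to 0.62, limma adjusted p = 0.93), and the sign turned without Visomitin 1, Visomitin 2 or control 2 (-0.11, -0.05 and -0.10). Fpr2 is uncertain, since it shares 37.6% of its 31-base words with Gm5966, listed at 0 in all libraries, and 13.5% with Fpr3, at 0.80 to 2.03 TPM. Fpr2 over Fpr1 ranged from 0.855 to 2.32 in Visomitin and from 0.870 to 1.20 in control libraries (exact two-sided permutation test, p = 0.4). Of 8 neutrophil markers, 7 were at 0 in all libraries, among them Ly6g, S100a9 and Elane; the remaining one, S100a8, was at 8.82 to 15.3 TPM in Visomitin and 11.4 to 19.5 TPM in control libraries.

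**Figure D3:**
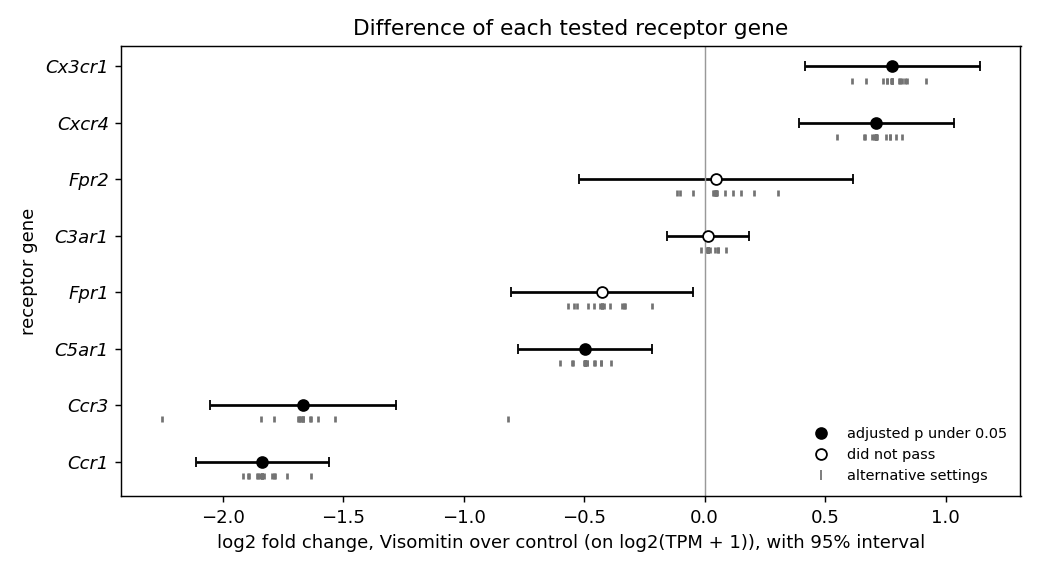
Log2 fold change of the 8 tested receptor genes, Visomitin over control, with 95% intervals from limma; filled points passed an adjusted p of 0.05, and grey ticks give the values under the alternative settings. Ccr1 and Ccr3 lie farthest below 0 and Cx3cr1 and Cxcr4 above it; the widest ticks of Ccr3 come from other pseudocounts.

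Ordered by level, the genes ran C5ar1, Cxcr4, C3ar1, Cx3cr1, Ccr1, Fpr2, Fpr1, Ccr3 and Ccr2 in Visomitin libraries, and C5ar1, Cxcr4, C3ar1, Ccr1, Cx3cr1, Ccr3, Fpr2, Fpr1 and Ccr2 in control libraries. Ccr1 and Cx3cr1 thus changed places: Cx3cr1 was above Ccr1 in each Visomitin library and below it in each control library. Neighbours whose ranges overlapped were Fpr2 and Fpr1 in both groups, and Cxcr4 and C3ar1 in control libraries. The ranges of all other neighbours did not overlap.

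Summed, the 9 genes came to 618, 659 and 738 TPM in Visomitin 1, 2 and 3, against 724, 744 and 780 TPM in control 1, 2 and 3. The sums overlapped, as did the shares of C3ar1 and Fpr2 in them, while the shares of the other 7 genes did not. Cxcr4 gave 29.7% to 31.5% of the sum in Visomitin and 12.8% to 19.5% in control libraries. Ccr1 gave 2.49% to 2.51% of it in Visomitin and 7.69% to 9.70% in control libraries. C5ar1 gave 41.9% to 45.6% in Visomitin and 51.3% to 61.0% in control libraries.

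**Figure D4:**
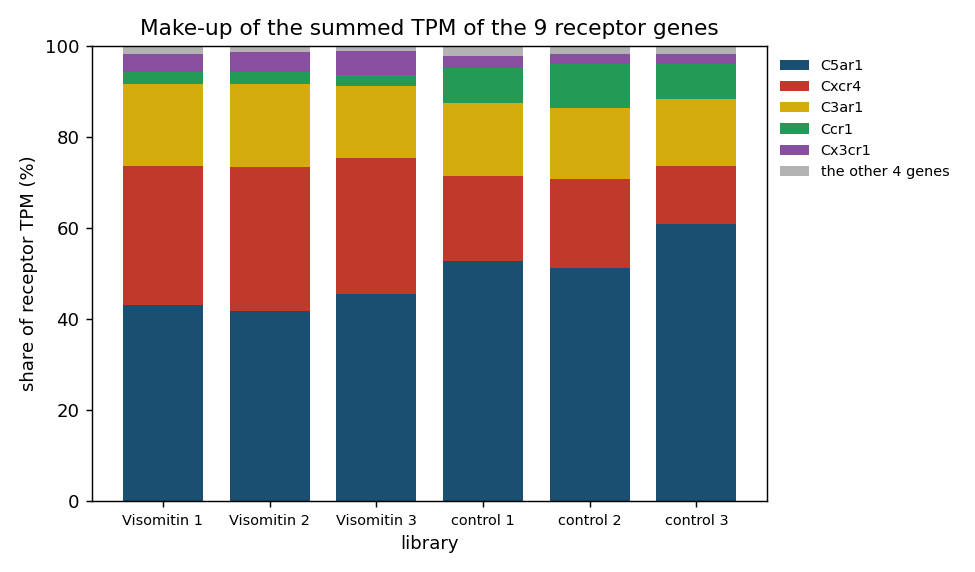
Share of the 5 most abundant receptor genes, and of the other 4 together, in the summed TPM of the 9 genes, in percent, for each library (Visomitin left, control right). The shares of Cxcr4 and Cx3cr1 are larger and those of C5ar1 and Ccr1 smaller in every Visomitin library.

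Ligands of these receptors were measured in the same libraries. Of 12 tested chemokine ligand genes, 3 fell, 0 rose and 9 did not pass, where 5.03% of all tested genes were lower and 2.08% higher; their median log2 fold change was -0.25, against -0.03 over all tested genes. Ccl8, a CC chemokine, had 3.70, 3.22 and 3.02 TPM in Visomitin 1, 2 and 3, against 18.0, 23.8 and 18.3 TPM in control 1, 2 and 3 (log2 fold change -2.28, SE 0.14, limma adjusted p = 8.00e-05). Ccl9, the Ccr1 ligand of mouse osteoclasts, was the most abundant CC chemokine of the list, at 327, 312 and 310 TPM in Visomitin 1, 2 and 3, against 424, 468 and 443 TPM in control 1, 2 and 3 (-0.49, SE 0.07, adjusted p = 0.0075). Both kept their groups apart in all libraries and passed under all 16 alternatives. Ccl12, a Ccr2 ligand, fell at the threshold (-0.89, limma adjusted p = 0.046). It missed the threshold without Visomitin 1, Visomitin 2, control 1, control 2 or control 3, with no filter and without the variance trend (adjusted p up to 0.16). Ccl3 (0.53, adjusted p = 0.14) and Ccl4 (0.51, 0.15) did not pass, nor did Mif, a cytokine that also binds Cxcr4 (0.34, 0.10). Of the eotaxins, the ligands of Ccr3, Ccl24 had 1.16, 0.26 and 0.27 TPM in Visomitin 1, 2 and 3, against 1.69, 0.74 and 1.53 TPM in control 1, 2 and 3, with overlapping groups (-0.59, limma adjusted p = 0.23), and Ccl11 and Ccl26 were listed at 0 in every library. Cxcl12, the ligand of Cxcr4, varied from 1.61 to 3.32 TPM in Visomitin and from 0.23 to 11.1 TPM in control libraries, with the highest value in control 3, where the stromal collagen genes were highest as well. The 7 stromal markers summed to 79.2 to 167 TPM in Visomitin and 113 to 323 TPM in control libraries, and none of them was at 0 in all libraries. Of the 6 tested, 0 passed limma (2 had an unadjusted p under 0.05). Of these 6, 5 had a log2 fold change below 0 and 1 above it, with a median of -0.70, against -0.03 over all tested genes.

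Of 4 tested genes for complement and formyl peptide receptor ligands, 1 fell, where 5.03% of all tested genes were lower. Anxa1, which encodes annexin A1, had 568, 542 and 594 TPM in Visomitin 1, 2 and 3, against 810, 802 and 750 TPM in control 1, 2 and 3 (log2 fold change -0.47, SE 0.07, limma adjusted p = 0.0092; 0.057 without control 1). No Visomitin library reached the lowest control value. C3, the source of C3a, was at 280 ± 56.3 TPM in Visomitin and 231 ± 34.5 TPM in control libraries (SD, n = 3 each) and did not pass (limma adjusted p = 0.34). Hc, which encodes C5, was at 0 to 0.03 TPM.

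Among 30 other chemoattractant receptor genes, 20 stayed below the filter, with no value above 1.49 TPM. Of the 10 tested, 1 fell and 0 rose, with a median log2 fold change of 0.012, a share of calls near the 7.10% of all tested genes. Gpr183, an oxysterol receptor that guides osteoclast precursors in mice, had 14.8, 17.4 and 17.8 TPM in Visomitin 1, 2 and 3, against 22.1, 24.5 and 23.1 TPM in control 1, 2 and 3 (log2 fold change -0.46, SE 0.11, limma adjusted p = 0.043). The groups did not overlap, but the call was lost without Visomitin 2, Visomitin 3, control 1, control 2 or control 3, with no filter and without the variance trend (adjusted p up to 0.13). C5ar2 (-0.10), the second C5a receptor, Fpr3 (-0.43), Cmklr1 (-0.26), the chemerin receptor, Ptafr (0.25), the platelet-activating factor receptor, Cxcr3 (0.37), Ccrl2 (0.08), S1pr1 (0.15) and S1pr2 (-0.06), both sphingosine-1-phosphate receptors, did not pass, with adjusted p of 0.19 to 0.90.

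Downstream of the receptors, 1 of 23 tested genes for G proteins and effectors fell and 0 rose (median 0.02), a share near the 5.03% of all tested genes that were lower. Rac2, a haematopoietic GTPase that drives actin assembly behind these receptors, had 115, 134 and 125 TPM in Visomitin 1, 2 and 3, against 213, 216 and 186 TPM in control 1, 2 and 3 (log2 fold change -0.71, SE 0.09, limma adjusted p = 0.0041). The groups were well apart, and the call held under all 16 alternatives. Gnai2, the more abundant of the listed inhibitory G protein subunits, was at 943 ± 92.7 TPM in Visomitin and 808 ± 1.58 TPM in control libraries (SD, n = 3 each; 0.22, adjusted p = 0.17). Of 13 genes that switch receptors off, 2 rose and 0 fell (median -0.04), where 2.08% of all tested genes were higher; the number that rose ran from 0 to 5 over the alternatives. Rgs2, which speeds the off-switch of G protein alpha subunits, had 28.6, 25.7 and 22.3 TPM in Visomitin 1, 2 and 3, against 17.1, 17.8 and 12.2 TPM in control 1, 2 and 3 (0.68, SE 0.16, adjusted p = 0.041). Grk5, a kinase that marks active receptors for arrestin, had 6.57, 7.27 and 6.86 TPM in Visomitin 1, 2 and 3, against 4.91, 4.49 and 4.52 TPM in control 1, 2 and 3 (0.49, SE 0.12, adjusted p = 0.049). Both groups of values were apart, yet Rgs2 lost its call without Visomitin 1, Visomitin 2, control 1 or control 3 (adjusted p up to 0.12) and both lost it with no filter on low values. Rgs2 also lost it without the variance trend. Grk5 lost it whichever single library was left out (up to 0.18), with the filter of 5 TPM on the mean and with the library number as a replicate block.

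**Figure D5:**
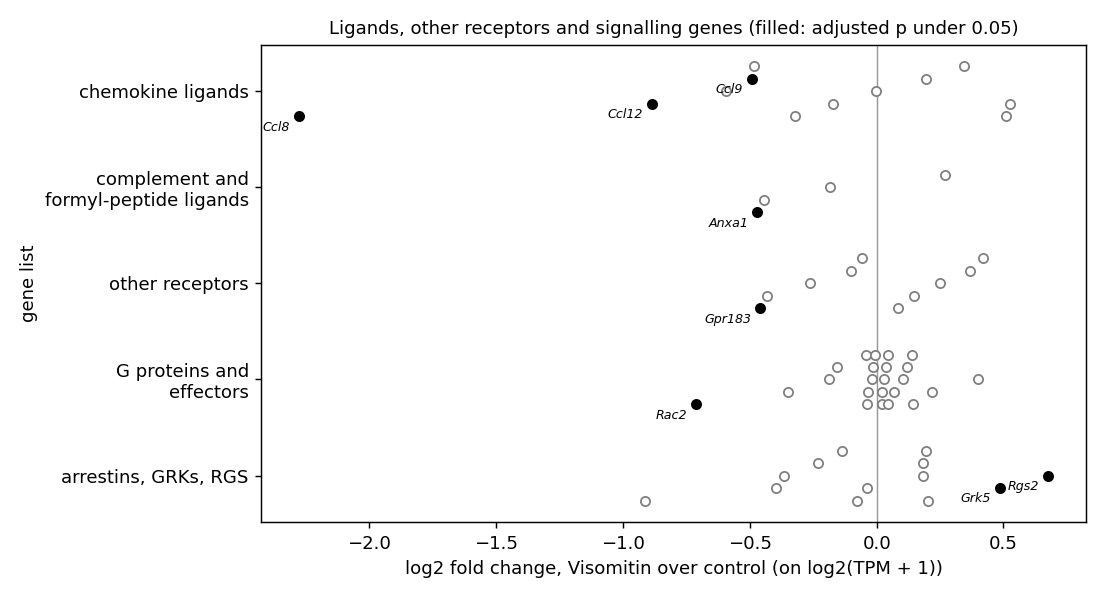
Log2 fold changes, Visomitin over control, of the tested ligand, receptor and signalling genes by list; filled points passed a limma adjusted p of 0.05. Ccl8, Ccl12, Ccl9, Anxa1, Gpr183 and Rac2 lie below 0 and Grk5 and Rgs2 above it, while most G protein and effector genes lie near 0.

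For each tested receptor gene, the genes of most similar pattern were taken by Pearson correlation of log2(TPM + 1) over the 6 libraries, among 8609 named genes with a mean of at least 5 TPM. With 6 libraries in 2 groups, any pair of genes that differ between the groups correlates strongly, so these values are a description. Ccr1 was nearest to Kbtbd11, an adaptor gene (r = 0.9986), and Adcy3, an adenylyl cyclase (0.9973). Ccr3 was nearest to Tango2 (0.9974) and Cycs, cytochrome c (0.9964). Cxcr4 was nearest to Ifngr1, an interferon gamma receptor chain (0.9948), and Naaa (0.9907). Cx3cr1 was nearest to the pseudogene H2-T-ps (0.9954) and Arrdc2 (0.9952), and C5ar1 to Riox2 (0.9987) and Supv3l1 (0.9972). For the receptor genes that did not pass, the nearest were Pccb (0.9911) and Tob1 (0.9866) to C3ar1, Cnot2 (0.9878) and Tpr (0.987) to Fpr1, and F10 (0.9785) and Gskip (0.971) to Fpr2. The genes nearest to Ccr1 and Ccr3 had log2 fold changes of -3.004, -1.55, -0.68 and -0.78 for Kbtbd11, Adcy3, Tango2 and Cycs (limma adjusted p of 4.05e-05 to 0.0037). They were picked for likeness to genes that fell in the same libraries, so their fall is no separate result. Near the other called receptor genes, Arrdc2, Ifngr1 and Naaa passed as higher. H2-T-ps (limma adjusted p = 0.15), Riox2 (0.10) and Supv3l1 (0.095) did not pass.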

How the data were processed

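The authors' deposited table holds TPM per gene and library, with 6 columns, 1 for each library. Per the labels' protocols, TRIzol RNA was cleared of genomic DNA and used for a stranded mRNA library kit. The submitters' processing notes name fastp, HISAT2 and StringTie; their versions, the genome build, annotation and strand setting: not given in the sources used here. Symbols are no column of the table; they came from a gene name table and exist for 51884 of 57180 identifiers. Because the files name no build, gene positions are those of the RefSeq or GENCODE tables named beside them.

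The 11753 genes that reached 1 TPM in 3 or more of the 6 libraries were fitted as log2(TPM + 1) by limma 3.58.1 (R 4.3.3), with a variance trend and no term but group. Differences are Visomitin minus control, two-sided, adjusted by Benjamini-Hochberg over all tested genes at 0.05. Fold changes on this scale understate the change of low genes. Ratios between receptor genes were compared by exact permutation of the libraries. The 16 alternatives changed the pseudocount, the filter, the scaling, the variance model, the replicate block, the mitochondrial genes or left out 1 library. The 9 receptor genes were named whatever their result, together with the called members of each list (up to 4), other receptors above 1 TPM on average, lineage markers and, for each tested receptor, the 2 genes of nearest pattern. Members and lists were chosen with earlier results of these data known. No pair of libraries shared identical TPM for more than 0.391% of the tested genes. Some genes of these lists are counted but not reported here by name.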

Additional observations from a re-analysis of the deposited data

How the results depend on the processing

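Ccr1 and Ccr3 kept their direction and their side of the threshold under every alternative that could be run for them (16 and 15); the filter of 5 TPM on the mean removed Ccr3, Fpr1 and Fpr2. With no filter on low values, where 22323 genes are tested, Cx3cr1 (0.78) and Cxcr4 (0.71) lost their calls, leaving 0 receptor genes higher, and the genes called over the whole table numbered 73 higher and 308 lower. C5ar1 lost its call with no filter, with a pseudocount of 0.1 and without the trend (-0.50 each) and after quantile normalization (-0.43). Fpr1 gained a call with array weights (-0.57), a setting that called 1263 genes higher and 1572 lower. The higher calls over the whole table were 481 with median-ratio scaling and 559 with quantile normalization. With 1 library left out, the log2 fold change ran from 0.61 to 0.92 for Cx3cr1, 0.55 to 0.82 for Cxcr4, -0.60 to -0.39 for C5ar1, -0.015 to 0.044 for C3ar1 and -0.11 to 0.30 for Fpr2. The sign of C3ar1 turned without Visomitin 2 (-0.015), and that of Fpr2 without Visomitin 1 (-0.11), Visomitin 2 (-0.05) or control 2 (-0.10). Receptor genes called higher numbered 0 to 2, and 54 to 411 genes were called higher and 232 to 577 lower over the whole table. Such fits have fewer residual degrees of freedom; beyond that and the number of genes tested, the cause was not tested. Of 160 counts for the ligand, receptor and signalling lists, 133 stayed within 1.5 times their main value, including counts of 0 that stayed at 0. Among lists with calls, genes that switch receptors off and rose ran from 0 to 5 (main 2). Genes that fell ran from 0 to 2 for other receptors (main 1) and from 0 to 1 for complement and formyl peptide ligands (main 1). They ran from 2 to 4 for chemokine ligands (main 3) and stayed at 1 for G proteins and effectors. The labels state no pairing. Deviations of libraries with the same number from their group means correlated at 0.05, 0.02 and 0.17. With means of 3 libraries, such values cannot show whether the numbers pair the libraries. With the library number as a replicate block, 2 receptor genes were higher and 3 lower, as without it, and 308 genes were higher and 799 lower over the whole table. The unknown depth limits what can be said of genes near 1 TPM, Ccr2 and Ccr3 above all.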

Other observations

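Some secreted chemokines and a stromal gene were highest in control 3. Ccl2, a ligand of Ccr2, was at 11.92, 10.09 and 13.95 TPM in Visomitin libraries, against 10.69, 13.73 and 32.94 TPM in control 1, 2 and 3. Ccl7, another ligand of Ccr2, was at 3.75, 3.91 and 3.28 TPM in Visomitin libraries, against 3.40, 3.72 and 8.41 TPM in control libraries in the same order. Cxcl12, the ligand of Cxcr4, was at 2.68, 3.32 and 1.61 TPM with Visomitin, against 1.81, 0.23 and 11.11 TPM in control libraries. Col1a1, a collagen gene of stromal cells, was at 27.83, 46.02 and 69.88 TPM with Visomitin, against 95.75, 48.95 and 138.75 TPM in control libraries. None of these 4 genes passed the threshold, with limma adjusted p of 0.438 for Ccl2, 0.517 for Ccl7, 0.998 for Cxcl12 and 0.199 for Col1a1. They were picked after their values were seen, and the part of stromal genes in the receptor values was not tested.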
